A study of Mus musculus with 7 samples.

Results

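Resident macrophages of mouse fat are described here through 10 marker genes, Lyve1, Timd4, Cd163, Folr2, Mrc1, F13a1, Vsig4, Cbr2, Clec10a and Gas6. The rule that chose them names markers of the resident, perivascular type of fat macrophage and uses no measured value. The choice was still made with earlier results of these data known. All 10 were found among the 29517 Entrez identifiers of the count table, and all 10 passed the filter on low counts that left 19185 genes. Messenger RNA was sequenced from inguinal white adipose tissue, the subcutaneous fat of the groin, which also encloses a lymph node. The samples were 4 wild-type (WT) and 3 TM4SF5-/- (KO) mice of the C57BL/6 strain, all untreated and on standard chow. The labels give neither age, sex, litter nor batch, and do not say which part of Tm4sf5 was deleted or in which cells. TM4SF5 is a membrane protein of the L6 family with 4 membrane-spanning segments, and the series asked what its loss does in this fat depot.

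Resident macrophages settle in tissues early and can maintain themselves there by division, while other macrophages are replaced from blood monocytes. In fat, cells of this type lie along vessels, take up material from the surrounding fluid and clear dying cells. The markers fall into roles. Mrc1, Cd163, Folr2, Lyve1 and Clec10a encode uptake or lectin receptors, Timd4 and Gas6 act in the recognition of dying cells, Vsig4 encodes a complement receptor, and F13a1 and Cbr2 encode enzymes.

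Libraries held 49775077 to 60241436 counts. Levels are given as CPM, counts relative to library size after TMM scaling, which evens out differences in library composition. The targeted gene, Tm4sf5, was near the detection limit, with 20 to 47 counts per WT library and 6 to 17 per KO library. The level of 0.353 CPM in KO 3 exceeded the 0.322 CPM of WT 4, so the target gene leaves the genotypes overlapping, and each library is called here by its label. The Y-linked gene Ddx3y was at 71.9 to 108 CPM and the female-specific RNA Xist at 0 to 0.484 CPM in the 7 libraries, so the groups did not differ in that respect. No gene passed an adjusted p of 0.05 by edgeR (percent called 0), while 4187 genes had an unadjusted p under 0.05. DESeq2 called 2158 genes and limma-voom 1 at the adjusted threshold. Mitochondrial transcripts took 8.07% to 12.1% of counts in WT and 16.1% to 18.9% in KO libraries, and their part in the results below was not tested.

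All 10 markers were lower in KO fat, by 2.38-fold for Timd4 to 7.26-fold for Vsig4. Each had an unadjusted edgeR p under 0.05, where 9.51% of all genes tested were lower at that threshold, and none passed after adjustment over all genes. Each was at least 2-fold lower, which held for 7.31% of genes tested. Because the markers were chosen with earlier results of these data known, these shares are a description. The median of their log2 fold changes (KO over WT) was -1.79, against -0.04 over all genes. DESeq2 called 8 of the 10 at an adjusted p under 0.05, all except Cbr2 and Gas6, and 2158 of 19185 genes in either direction. Limma-voom called 0 markers, with 4 of the 10 under an unadjusted p of 0.05, where 8.78% of genes were lower. In RNA from whole tissue, fewer cells of a type and less RNA per cell cannot be told apart. The 10 markers did not behave alike within the WT group: 1 WT library, WT 4, lay within or below the KO range for 7 of them. WT 4 lay there for 66.9% of all genes tested, a share that includes genes unchanged or higher in KO. Of 16 general macrophage genes, all lower in KO as given below, it lay there for 2. WT and KO values overlapped for 7 of the 10 markers, and Lyve1, Timd4 and Clec10a were those without overlap. Of all genes tested, 8.92% were lower in KO without overlap.

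**Figure D1:**
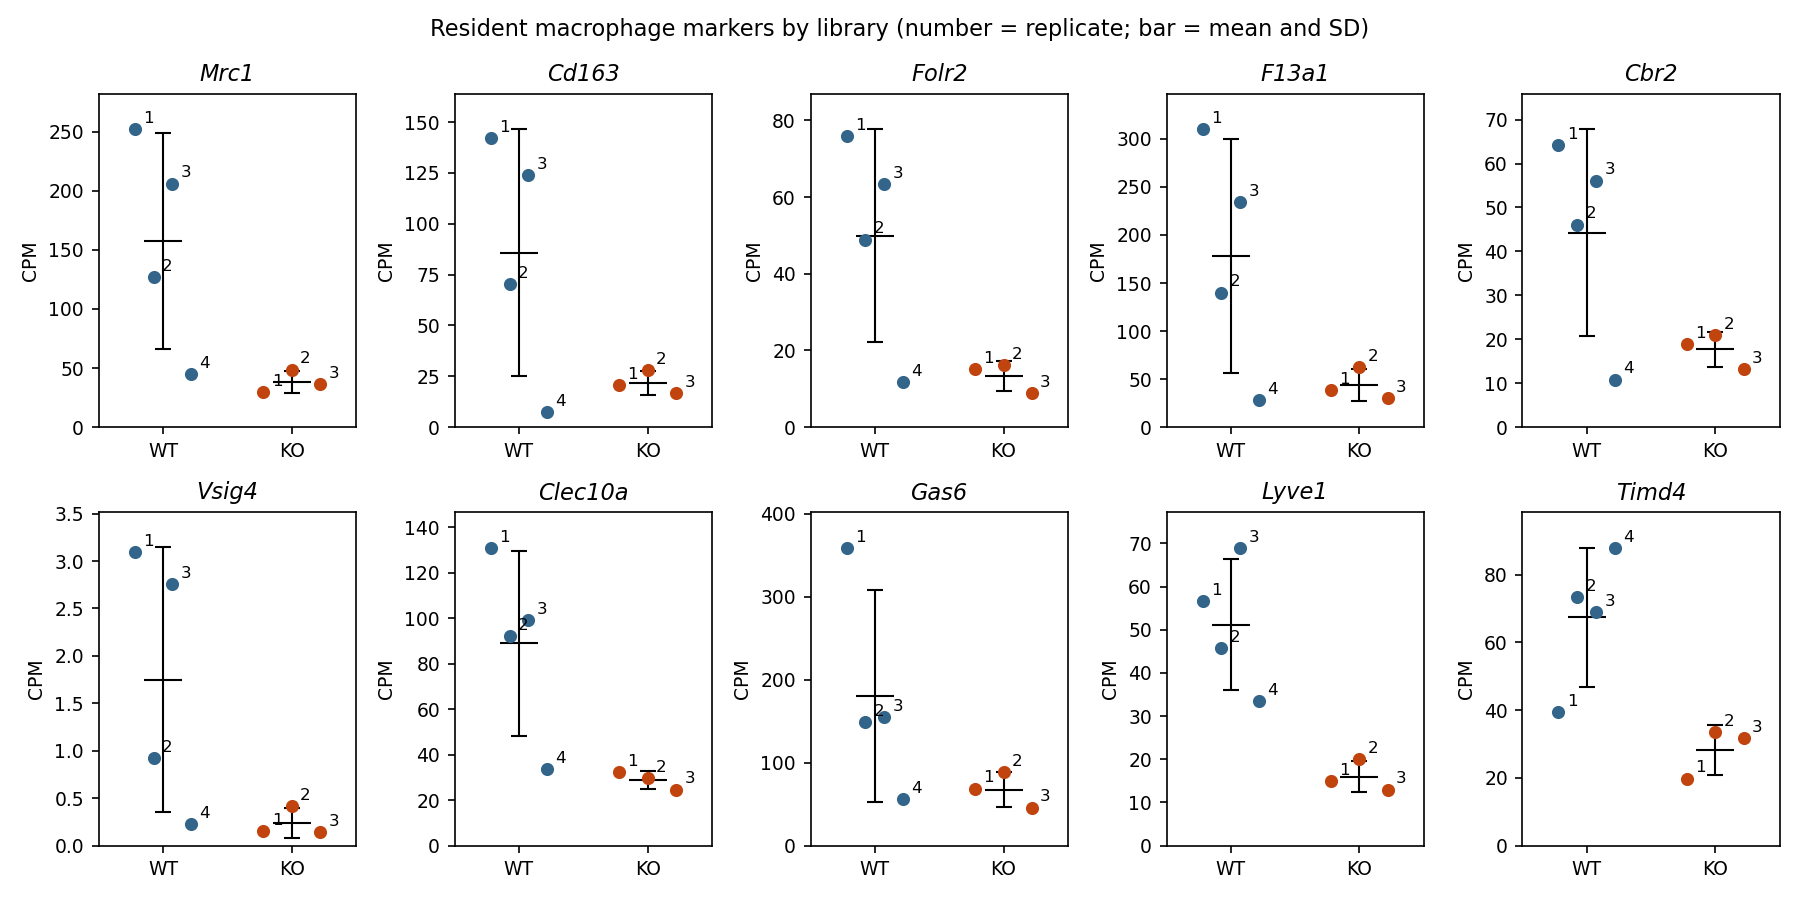
Level of each marker in CPM (vertical axis, from 0) in the 4 WT and 3 KO libraries. Points are libraries numbered by replicate, and bars are the mean and SD. For Cd163, WT 4 sits at 7.24 CPM while the other WT libraries lie between 70.3 and 142 CPM, and for Timd4, WT 4 is the highest library at 87.9 CPM.

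The regulatory sequence before the start site is shown for 3 markers, Mrc1 and Vsig4 for their large differences and Timd4 for its different order of libraries. Promoters were available for 8 of the 10 markers from RefSeq (GRCm38.p6, the assembly of mm10). Each line gives the 250 bases before the start site listed for that promoter, 5′ to 3′ on the gene's strand. For Timd4 the window ends at 46810798, inside the gene as placed below, which begins at 46810786. Capitals mark GAGGAA, the core bound by the macrophage factor PU.1, and TGCTGA, which is part of the site of MAF factors, on either strand (TTCCTC and TCAGCA).
Mrc1 (chr2:14229164-14229413, + strand): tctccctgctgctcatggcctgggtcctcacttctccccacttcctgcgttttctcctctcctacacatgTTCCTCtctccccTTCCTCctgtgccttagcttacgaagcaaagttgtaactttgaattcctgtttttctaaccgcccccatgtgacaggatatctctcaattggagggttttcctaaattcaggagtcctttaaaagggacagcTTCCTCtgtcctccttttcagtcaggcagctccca
Vsig4 (chrX:96293439-96293688, - strand): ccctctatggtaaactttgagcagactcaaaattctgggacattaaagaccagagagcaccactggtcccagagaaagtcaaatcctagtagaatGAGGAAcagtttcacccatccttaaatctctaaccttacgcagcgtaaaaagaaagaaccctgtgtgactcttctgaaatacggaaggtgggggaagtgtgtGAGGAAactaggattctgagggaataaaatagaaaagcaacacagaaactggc
Timd4 (chr11:46810549-46810798, + strand): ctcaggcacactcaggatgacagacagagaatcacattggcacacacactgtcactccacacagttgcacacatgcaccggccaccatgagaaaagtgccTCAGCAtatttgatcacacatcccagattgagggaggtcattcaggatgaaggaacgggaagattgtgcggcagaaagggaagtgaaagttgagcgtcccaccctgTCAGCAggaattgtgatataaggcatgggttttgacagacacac
The Mrc1 window held 3 copies of GAGGAA, the nearest starting 35 bases before the start site, and the Vsig4 window held 2. The Timd4 window held 2 copies of TGCTGA and none of GAGGAA. Of the 8 markers, 4 (Mrc1, Vsig4, F13a1 and Cbr2) had GAGGAA in a promoter window, and 2 (Timd4 and Folr2) had TGCTGA. Folr2 and F13a1 have 2 windows each, so per promoter GAGGAA was in 4 of 10, which 23.3% of all 32851 promoters hold, and TGCTGA in 3 of 10, which 16.1% hold. No marker had both. These are matches of letters only.

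Mrc1 encodes the mannose receptor CD206, which internalises sugar-bearing proteins and collagen fragments. It was at 252, 127, 206 and 44.7 CPM in WT 1 to WT 4, and at 29.4, 48.6 and 36.7 CPM in KO 1 to KO 3. WT 1 to WT 3 were above every KO library, and WT 4 was below KO 2. The means were 157 ± 91.2 CPM (SD, n = 4) and 38.3 ± 9.72 CPM (SD, n = 3). On the log2 scale KO minus WT came to -2.04 (SE 0.54; adjusted p = 0.105, edgeR). Mrc1 (Entrez 17533, protein-coding like all 10 markers) spans 14229414 to 14332023 on chromosome 2 of mm10.

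Cd163 encodes the scavenger receptor for complexes of haptoglobin and hemoglobin. Its levels were 142, 70.3, 124 and 7.24 CPM in WT 1 to WT 4 and 20.8, 28.2 and 16.6 CPM in KO 1 to KO 3. Here WT 4 was the lowest of all 7 libraries, and the WT values spanned 19.6-fold, the widest WT range among the 10 markers. Cd163 had a log2 fold change of -1.97 (SE 0.81; adjusted p = 0.21, edgeR), with an exact two-sided permutation p of 0.2, where the smallest that 35 splits allow is 0.0286. Cd163 (Entrez 93671) lies on chromosome 6, from 124304636 to 124330529.

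Folr2 encodes folate receptor beta. It stood at 76.0, 48.9, 63.3 and 11.7 CPM in WT 1 to WT 4 and at 15.1, 16.2 and 8.83 CPM in KO 1 to KO 3. Again WT 4 lay inside the KO range and the other WT libraries above it. For Folr2 the log2 fold change came to -1.90 (SE 0.57; adjusted p = 0.127, edgeR). On chromosome 7, from 101839988 to 101857190, the gene (Entrez 14276) is overlapped by Gm10602 on the opposite strand, and 52.6% of the 50-base stretches of its transcripts also occur in Gm10602. Without the strand rule of the counting, which no source used here states, reads of the pair cannot be told apart. Gm10602 itself was counted at 1.36 to 3.27 CPM in WT and 2.38 to 2.82 CPM in KO libraries. The other folate genes did not move with Folr2: of 3 tested, 0 were lower and 1 was higher at an unadjusted p under 0.05. That gene, Slc46a1, encodes the proton-coupled folate transporter (log2 fold change 0.85, edgeR adjusted p = 0.121).

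F13a1 encodes the A subunit of coagulation factor XIII, a transglutaminase that cross-links fibrin. Levels of 310, 140, 234 and 27.8 CPM in WT 1 to WT 4 compared with 38.3, 62.4 and 30.3 CPM in KO 1 to KO 3. WT 4 was below all KO libraries. KO differed from WT by -2.03 in log2 units (SE 0.71; adjusted p = 0.16, edgeR). F13a1 is also made by platelets and their precursors, whose 8 listed markers summed to 9.38 to 22.6 CPM in WT and 7.48 to 9.53 CPM in KO libraries. Itga2b made up 19.1 of the 22.6 CPM in WT 4, the highest sum. Others of that list had few reads and no common order, with Gp1bb lowest in WT 4 (0.177 CPM). The part of platelets in the F13a1 values was not tested. F13a1 (Entrez 74145) is on chromosome 13, from 36867178 to 37050244.

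Cbr2, a carbonyl reductase gene, was at 64.2, 46.1, 56.1 and 10.8 CPM in WT 1 to WT 4. KO 1 to KO 3 had 18.9, 21.0 and 13.2 CPM, so that WT 4 was again the lowest of all. In log2 units the difference was -1.32 (SE 0.53; adjusted p = 0.202, edgeR). Cbr2 (Entrez 12409; chromosome 11, 120729485 to 120732025) shares 12.1% of its 50-base stretches with Gm11771, which was counted at 0.0967 to 0.514 CPM.

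Vsig4 encodes the complement receptor CRIg, which binds fragments of C3, and is a marker of macrophages in body cavities and liver. It was the least abundant marker, with counts of 190, 61, 178 and 14 from WT 1 through WT 4, then 6, 19 and 7 from KO 1 through KO 3. These are 3.09, 0.922, 2.76 and 0.226 CPM in WT and 0.151, 0.418 and 0.145 CPM in KO. WT 4 lay within the KO range. Its log2 fold change of -2.86 (SE 0.92; adjusted p = 0.142, edgeR) rests on few counts in 4 of the libraries. Vsig4 (Entrez 278180) is X-linked, from 96247201 to 96293438.

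Clec10a encodes a galactose-type lectin (MGL1) of macrophages and dendritic cells. WT 1 to WT 4 had 131, 92.1, 99.1 and 33.6 CPM, and KO 1 to KO 3 had 32.3, 29.7 and 24.6 CPM. The groups did not overlap, but WT 4 exceeded KO 1 by little. Clec10a had a log2 fold change of -1.62 (SE 0.41; adjusted p = 0.102, edgeR; exact two-sided permutation p 0.0571). On chromosome 11 the gene (Entrez 17312; 70166623 to 70170836) lies 334438 bases from Tm4sf5 (70505274 to 70511183), nearer than any other marker. Timd4 and Cbr2, on the same chromosome, lie 23660941 and 50218302 bases away. Clec10a and its paralog Mgl2 share 270 of the 3181 50-base stretches of Clec10a. Mgl2 followed another order, at 13.6, 52.8, 63.0 and 3.81 CPM in WT 1 to WT 4 and 12.8, 21.3 and 12.7 CPM in KO 1 to KO 3 (log2 fold change -1.09, edgeR adjusted p = 0.463). Clec10a counts were 9.58 and 8.83 times those of Mgl2 in WT 1 and WT 4, and 1.40 to 2.52 times in the remaining 5 libraries.

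Gas6 encodes the secreted ligand that links exposed phosphatidylserine on dying cells to the receptor kinases Tyro3, Axl and Mertk. It was the most abundant marker per kilobase of exon, averaging 70.6 ± 50.1 RPKM over the WT libraries (SD, n = 4) and 26.6 ± 8.44 RPKM over the KO libraries (SD, n = 3). In CPM, WT 1 to WT 4 had 359, 149, 155 and 56.2, and KO 1 to KO 3 had 68.6, 88.7 and 45.7. WT 1 stood well above all others and WT 4 within the KO range. Gas6 had a log2 fold change of -1.41 (SE 0.56; adjusted p = 0.199, edgeR), and -0.83 without WT 1. Gas6 (Entrez 14456; chromosome 8, 13465374 to 13494535) is made by stromal and endothelial cells too. Markers of fat progenitors and fibroblasts, 10 genes, summed to 14114, 3426, 5632 and 1138 CPM in WT 1 to WT 4 and 4255, 4262 and 1404 CPM in KO 1 to KO 3, with the same highest library as Gas6. Col3a1 (8996 CPM) and Col1a1 (3237 CPM) made up most of the sum in WT 1. All 10 had negative log2 fold changes, with a median of -0.82. Of these 10, 1 was lower at an unadjusted p under 0.05, Dpp4 (log2 fold change -1.07), where 9.51% of all genes tested were. Blood endothelial markers summed to 1509, 694, 944 and 410 CPM in WT 1 to WT 4 and 964, 1203 and 610 CPM in KO 1 to KO 3, also highest in WT 1. The part of either list in the Gas6 result was not tested.

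Lyve1 encodes a hyaluronan receptor of resident macrophages and lymphatic endothelium. It was at 56.6, 45.7, 69.0 and 33.5 CPM in WT 1 to WT 4 and at 14.9, 20 and 13 CPM in KO 1 to KO 3. Every WT library, WT 4 included, was above every KO library. The means were 51.2 ± 15.2 CPM (SD, n = 4) and 16 ± 3.59 CPM (SD, n = 3). KO minus WT was -1.68 in log2 units (SE 0.27; adjusted p = 0.0956, edgeR), with an exact two-sided permutation p of 0.0571. Lyve1 (Entrez 114332) spans 110850607 to 110862953 on chromosome 7. The 10 lymphatic endothelial markers had a median log2 fold change of -0.51, and 3 of them were lower at an unadjusted p under 0.05. Prox1, the transcription factor that defines lymphatic endothelium, was at 5.73, 6.00, 8.04 and 12.6 CPM in WT 1 to WT 4 and at 1.81, 4.07 and 2.41 CPM in KO 1 to KO 3 (log2 fold change -1.55, edgeR adjusted p = 0.103). Mmrn1, a secreted protein gene of the same cells, had -1.64, while the receptor Flt4 had -0.47 and the surface protein gene Pdpn -0.72. Of the 10, 2 were positive, Sox18 (0.55) and Tie1 (0.34), which encode a transcription factor and a receptor that blood endothelium shares, and Reln was at -0.02. The share of Lyve1 from either cell type was not tested.

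Timd4 encodes a phosphatidylserine receptor of long-lived resident macrophages, also found in lymphoid organs. It was at 39.3, 73.3, 68.8 and 87.9 CPM in WT 1 to WT 4 and at 19.8, 33.4 and 31.7 CPM in KO 1 to KO 3. The order of WT libraries was unlike that of the other markers, with WT 4 highest and WT 1 lowest, and the groups did not overlap. The means were 67.3 ± 20.4 CPM (SD, n = 4) and 28.3 ± 7.42 CPM (SD, n = 3). KO minus WT was -1.25 in log2 units (SE 0.30; adjusted p = 0.0967, edgeR), again with an exact two-sided permutation p of 0.0571. Timd4 (Entrez 276891) lies on chromosome 11, from 46810786 to 46844333. The other members of its family, Timd2, Havcr1 and Havcr2, were all lower at an unadjusted p under 0.05 (log2 fold changes -2.92, -1.72 and -0.89), and each was highest in WT 4. Timd2 counted at most 0.967 CPM, so its fold change rests on few reads.

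Of a list of 20 further resident macrophage genes, Cd5l, Marco, Cd209b and Msr1 were also highest in WT 4. Most of that list had its lowest WT value in WT 4 instead. Among these were the Cd209b paralogs Cd209d, Cd209f and Cd209g, at 5.43, 6.11 and 2.85 CPM in WT 4. Apart from Cd209b and Msr1, the genes named here were picked with their values known. Cd5l, which encodes a secreted macrophage protein, was at 7.94, 5.33, 6.24 and 91.5 CPM in WT 1 to WT 4 and at 1.36 to 3.37 CPM in KO libraries. Marco, a scavenger receptor gene, was at 29.7, 51.9, 39.9 and 179 CPM in WT 1 to WT 4 and at 25.0 to 36.7 CPM in KO libraries. Cd209b, a lectin gene, reached 155 CPM in WT 4, against 78.1 to 87.4 CPM in the other WT and 40.2 to 48.9 CPM in KO libraries. The 10 lymphocyte markers summed to 381, 1026, 737 and 1342 CPM in WT 1 to WT 4 and to 316, 495 and 880 CPM in KO 1 to KO 3, again highest in WT 4 and, among WT libraries, lowest in WT 1. This is the WT order of Timd4 at its ends, and the part of lymph node tissue in the Timd4 values was not tested.

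WT 4 was thus the lowest WT library for 9 of the 10 markers, all except Timd4, where 27.4% of all genes tested had their lowest WT value there. It lay within the KO range for Folr2, Mrc1, Vsig4 and Gas6, and below it for Cd163, F13a1 and Cbr2. WT 4 also had the lowest Tm4sf5 level among WT libraries. Without WT 4, WT and KO did not overlap for any of the 10 markers, where 12.7% of genes tested were lower without overlap. Leaving out KO 2 gave 5 such markers (13.5% of genes tested). Without WT 1, WT 2, WT 3, KO 1 or KO 3 there were 3, and the shares of genes tested were 13.7%, 11.4%, 10.4%, 9.73% and 17.9% in that order. Leaving out WT 4, all 10 had an unadjusted edgeR p under 0.05 (8.72% of genes tested were lower at that threshold), 0 passed the adjusted threshold, with adjusted p-values from 0.054 to 0.118, and the median log2 fold change was -2.06. The size of the difference with and without that library is set out, for each marker, in the plot of fold changes.

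**Figure D2:**
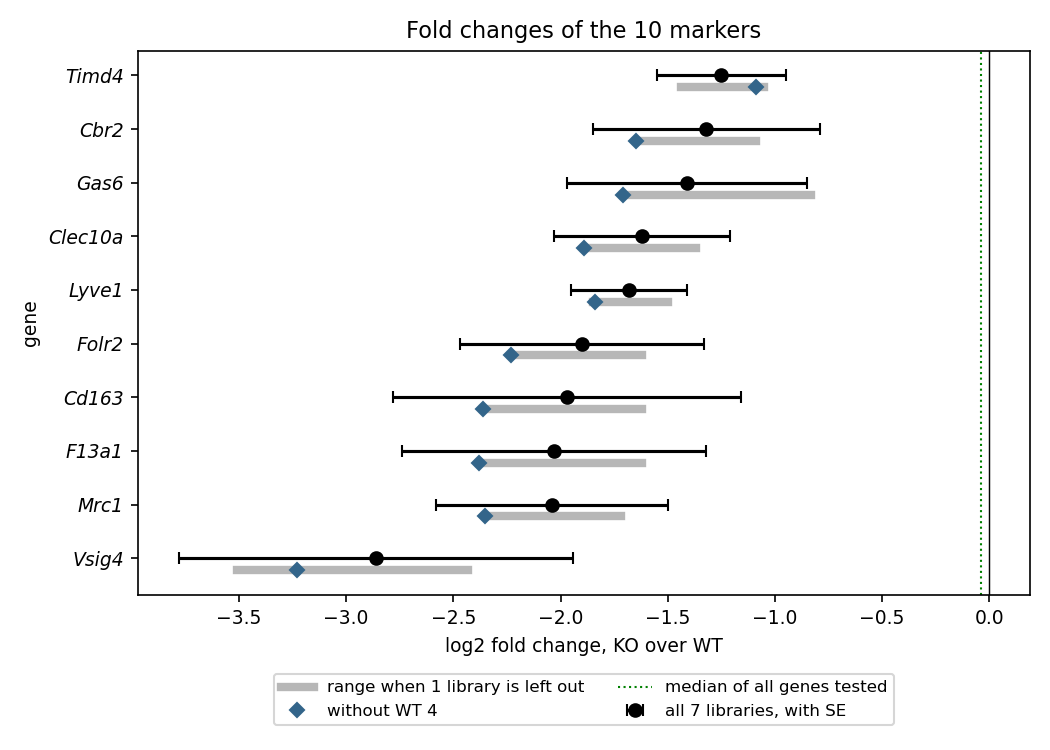
Log2 fold change of KO over WT (horizontal axis) for each marker, with all 7 libraries (black, with SE), the range when 1 library is left out (grey), without WT 4 (blue), and the median of all genes tested (dotted, -0.04). With all libraries the values run from -1.25 for Timd4 to -2.86 for Vsig4, the grey ranges reach from -0.83 for Gas6 to -3.51 for Vsig4, and leaving out WT 4 moves every marker except Timd4 further from 0.

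Among the KO libraries the markers varied less. KO 2 was the highest for 9 of the 10 markers, all except Clec10a, where KO 1 was. KO 3 was the lowest for 8, all except Mrc1 and Timd4. The highest KO value was 1.31-fold the lowest for Clec10a and 2.87-fold for Vsig4, with the others between, while WT values spanned 2.06-fold for Lyve1 to 19.6-fold for Cd163. Vsig4 had 6 counts in KO 1 and 7 in KO 3, so their order is not resolved for that gene.

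**Figure D3:**
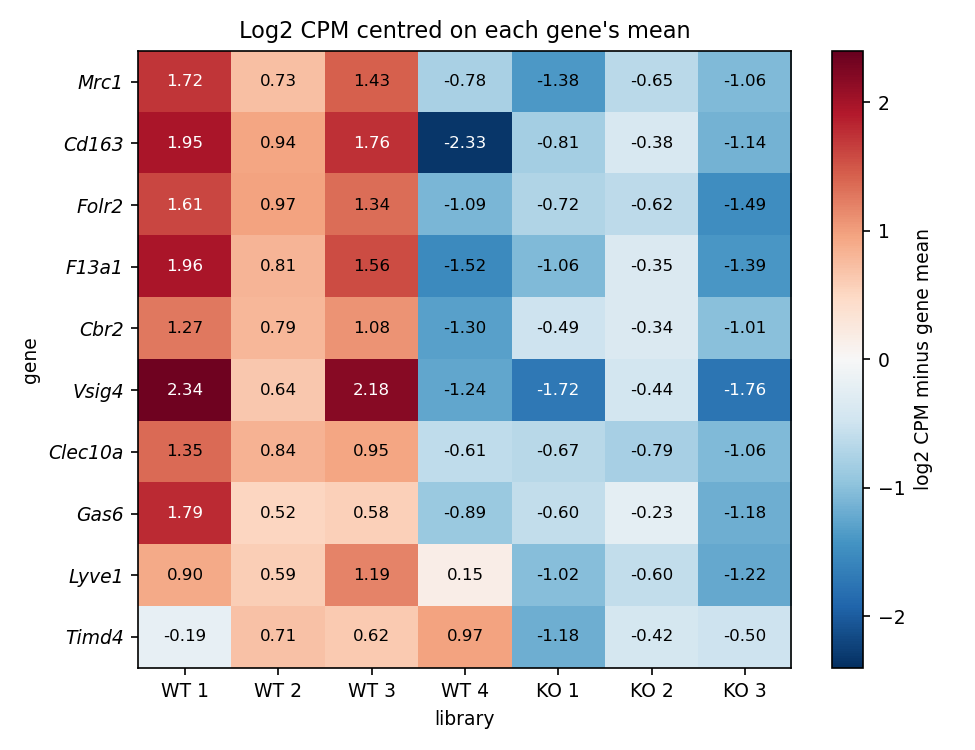
Log2 CPM of each marker (rows) in each library (columns), centred on the marker's own mean over the 7 libraries. WT 1 to WT 3 are above 0 except for Timd4 in WT 1 (-0.19), and WT 4 runs from -2.33 for Cd163 to 0.97 for Timd4.

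Per kilobase of exon, the order of mean WT levels below Gas6 was Cbr2 (33.4 RPKM), Folr2 (32.3), Timd4 (31.0), Clec10a (30.6), F13a1 (26.4), Mrc1 (24.7), Lyve1 (17.5), Cd163 (15.7) and Vsig4 (1.18 ± 0.939). Apart from Vsig4, neighbours in that order differed by less than the larger of their SDs over the 4 WT libraries, and those SDs ran from 5.21 RPKM for Lyve1 to 50.1 RPKM for Gas6. In KO libraries Cbr2 (13.3 ± 3.07 RPKM) and Timd4 (13 ± 3.41 RPKM) followed Gas6, and Cd163 (4.01 ± 1.07 RPKM) came next above Vsig4 (0.161 ± 0.105 RPKM). The deposited counts do not show which transcripts were read, so exon lengths of GENCODE vM21 are only an approximation.

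Genes that mark macrophages in general were lower in KO as well. All 16 of a list with Adgre1, Csf1r and the C1q genes had an unadjusted edgeR p under 0.05 and a negative log2 fold change, 0 passed the adjusted threshold, and the median was -1.26. Csf1r, the receptor that macrophages need to survive, had -1.85, Adgre1 (F4/80) -2.04 and the lysosomal marker Cd68 -1.03. In 12 of these 16 the groups did not overlap. The summed level of the list was 2217, 1677, 1815 and 1776 CPM in WT 1 to WT 4 and 575, 695 and 956 CPM in KO 1 to KO 3. The gene Lyz2, which encodes lysozyme, made up 887 of the 1776 CPM in WT 4. Without it the other 15 genes summed to 1491, 1062, 1179 and 889 CPM in WT 1 to WT 4 and 340, 415 and 552 CPM in KO 1 to KO 3, so that WT 4 was then the lowest WT library but still above the KO libraries. Of the 16 genes, 10 had their lowest WT value in WT 4, and for 2, Adgre1 and Cd68, WT 4 lay within the KO range. The 10 resident markers summed to 1433, 793, 1079 and 313 CPM in WT 1 to WT 4 and to 258, 349 and 221 CPM in KO 1 to KO 3. How WT 4 stands in the 2 lists rests on 1 library and was not tested.

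Set against that general list, the resident markers overlapped between genotypes, and for some that overlap came from WT 4 alone. The log2 CPM of each marker minus the mean log2 CPM of the 16 genes differed between KO and WT means by -0.95 for Vsig4 to 0.27 for Cbr2, and WT and KO values overlapped for all 10 (0.099% of genes tested were lower without overlap on this scale). The mean of the 16 genes was itself 5.54 to 6.15 in WT and 4.1 to 4.88 in KO libraries. A gene at equal CPM is therefore raised in KO on this scale. The shares of all genes given here are small for that reason and do not measure the markers against other genes. Without WT 4, Mrc1, Cd163 and Folr2 were lower in KO without overlap, against 0.224% of genes tested, and leaving out any other single library gave 0 such markers. The difference then ran from -1.59 for Vsig4 to 0.35 for Timd4, moved from -0.01 to -0.89 for Cd163 and from -0.46 to -0.89 for Mrc1, and changed sign for Cbr2 (0.27 to -0.23) and Gas6 (0.17 to -0.20). These values without 1 library were added after seeing the data. For Mrc1 this relative level averaged 1.22 (SD 0.89) over the 4 WT libraries, against 0.76 (SD 0.42) over the 3 KO libraries. For Cd163 the averages were -0.04 (SD 1.79) and -0.05 (SD 0.67), with WT 4 at -2.67. WT 4 had the lowest relative level of all 7 libraries for 8 markers, while KO 3 was the lowest for Lyve1 and WT 1 for Timd4.

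**Figure D4:**
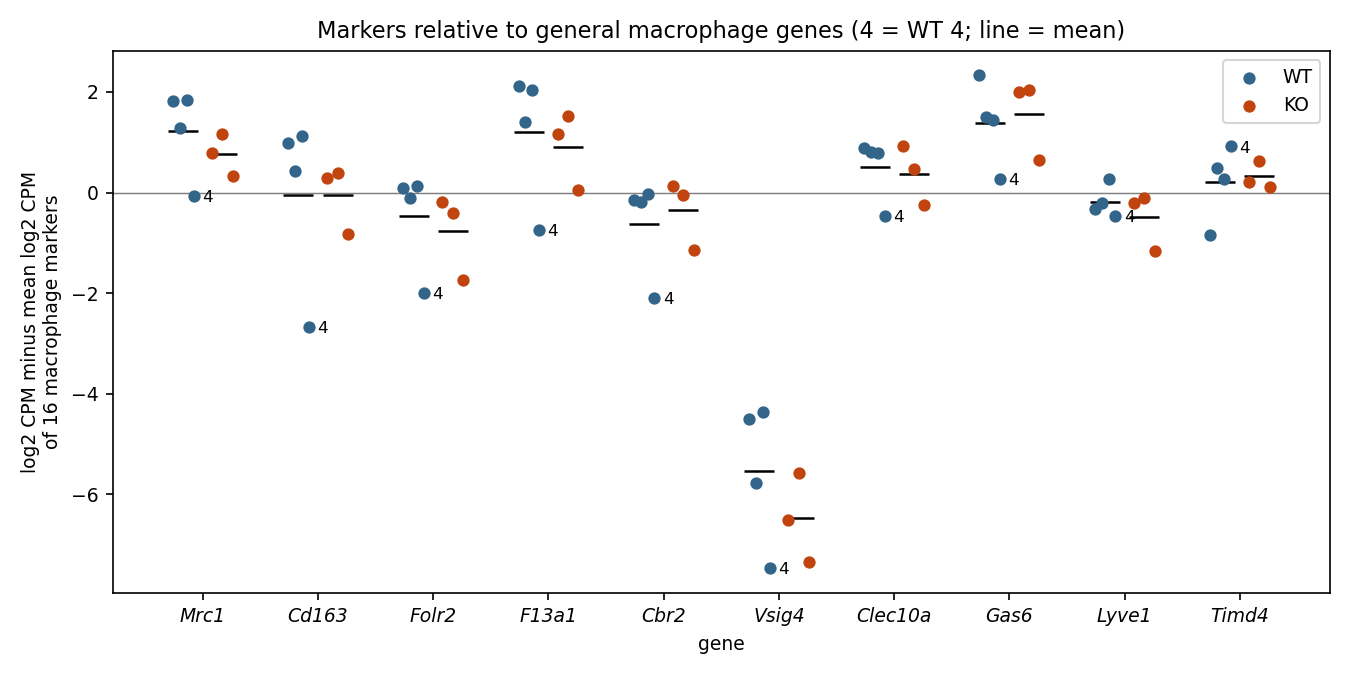
Log2 CPM of each marker minus the mean log2 CPM of 16 general macrophage genes (vertical axis), by library; lines are group means. WT and KO points overlap for every marker, and WT 4 (labelled 4) is the lowest point for 8 of them.

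Further genes of resident macrophages gave a mixed picture. Of 20 tested, 10 were lower and 1 higher at an unadjusted p under 0.05, with a median log2 fold change of -1.08 and 0 past the adjusted threshold. Msr1, a scavenger receptor gene, had -1.58 (edgeR adjusted p = 0.0956) and Cd209b -1.21 (edgeR adjusted p = 0.0956). The higher gene was Ltc4s, which encodes leukotriene C4 synthase, at 24.1 to 31.1 CPM in WT and 36.7 to 53.5 CPM in KO (log2 fold change 0.75, edgeR adjusted p = 0.0967).

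In the clearance of dying cells, 7 of the 13 tested genes other than Gas6 and Timd4 were lower at an unadjusted p under 0.05, 0 were higher and the median was -0.89. The receptor kinase genes Axl and Mertk had -1.15 (edgeR adjusted p = 0.13) and -0.62 (edgeR adjusted p = 0.187), and Pros1, the other ligand of these kinases, had -0.60 (edgeR adjusted p = 0.351). Axl was at 256, 139, 223 and 101 CPM in WT 1 to WT 4 and at 93.4, 94.2 and 55.1 CPM in KO 1 to KO 3, without overlap. The scavenger receptor gene Stab2 had -1.16 (edgeR adjusted p = 0.1).

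Around Cd163, the genes of hemoglobin and iron handling did not share its direction as a group. Of 11 others tested, 2 were lower and 1 higher at an unadjusted p under 0.05, with a median of -0.07. Hp, encoding haptoglobin, had 0.45 and Hmox1, the heme-degrading enzyme, -0.53. Hmox1 was highest in WT 4, at 104 CPM against 28.4 to 53.3 CPM in all other libraries, where Cd163 was lowest. The lower genes were the metal transporter genes Slc11a1 (-1.13) and Slc40a1 (-1.60), and the higher one Fth1 (0.74), a ferritin subunit.

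C-type lectins other than Mrc1 and Clec10a were lower for 6 of 9 tested at an unadjusted p under 0.05, and 0 were higher, with a median of -1.12. Clec4a3 had -1.82 (edgeR adjusted p = 0.0956) and Clec4n -1.85 (edgeR adjusted p = 0.1), while Mrc2, the paralog of Mrc1 in fibroblasts, had -0.36 (edgeR adjusted p = 0.731). Of 12 genes of alternative activation other than Mrc1, 4 were lower and 0 higher, with a median of -0.63. The interleukin receptor genes Il10ra and Il4ra had the smallest p-values, with -1.0 (edgeR adjusted p = 0.124) and -0.56. Of 7 growth factor and receptor genes tested, 3 were lower and 0 higher. Besides Csf1r these included Csf1, its ligand, with -0.69 (edgeR adjusted p = 0.182), while Il34, the second ligand, had 0.25.

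Other cell types were compared by the same counts. At an unadjusted p under 0.05, 9.51% of all genes tested were lower and 12.3% higher. Of 11 monocyte genes, 6 were lower and 0 higher at an unadjusted p under 0.05 (median -1.03), with Ccr2, the receptor that brings monocytes into tissue, at -1.19, Ly6c2 at -0.90 and Plac8 at -1.07. Of 13 genes of lipid-associated macrophages, which engulf dying adipocytes, 3 were lower and 1 higher (median -0.03). Trem2, which encodes their lipid receptor, had -2.15, Gpnmb -1.79 and Itgax -0.90, while Ctsd, a lysosomal protease gene, had 0.87. Trem2 was at 8.41 CPM in WT 1 and at 1.48 to 2.68 CPM in the other WT libraries. Gpnmb was at 59.3 CPM in WT 1 and at 5.47 to 16.2 CPM in the other WT libraries, with WT 2 inside the KO range. That list mixed levels, with Trem2 at most at 8.41 CPM and Lpl at 4010 to 8868 CPM over the 7 libraries. Which cells made the RNA of each gene was not tested, so the median does not describe these macrophages alone. Of 10 dendritic cell genes, 6 were lower (median -0.73), with Itgae at -0.80 and Siglech at -1.18. Of 10 lymphocyte genes, 1 was lower at that threshold (Ncr1, -0.95), but all 10 had negative log2 fold changes, with a median of -0.61. Blood endothelial genes had 1 of 10 lower (Plvap, -0.67) and a median of 0.20, and of the 10 adipocyte genes 6 were higher, with a median of 0.71. Fabp4 and Lipe had 1.13 and 0.90, and the adipocyte list summed to 11391 to 17233 CPM in WT and 19227 to 34042 CPM in KO libraries. The part of these higher sums of adipocyte RNA in the marker levels was not tested.

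**Figure D5:**
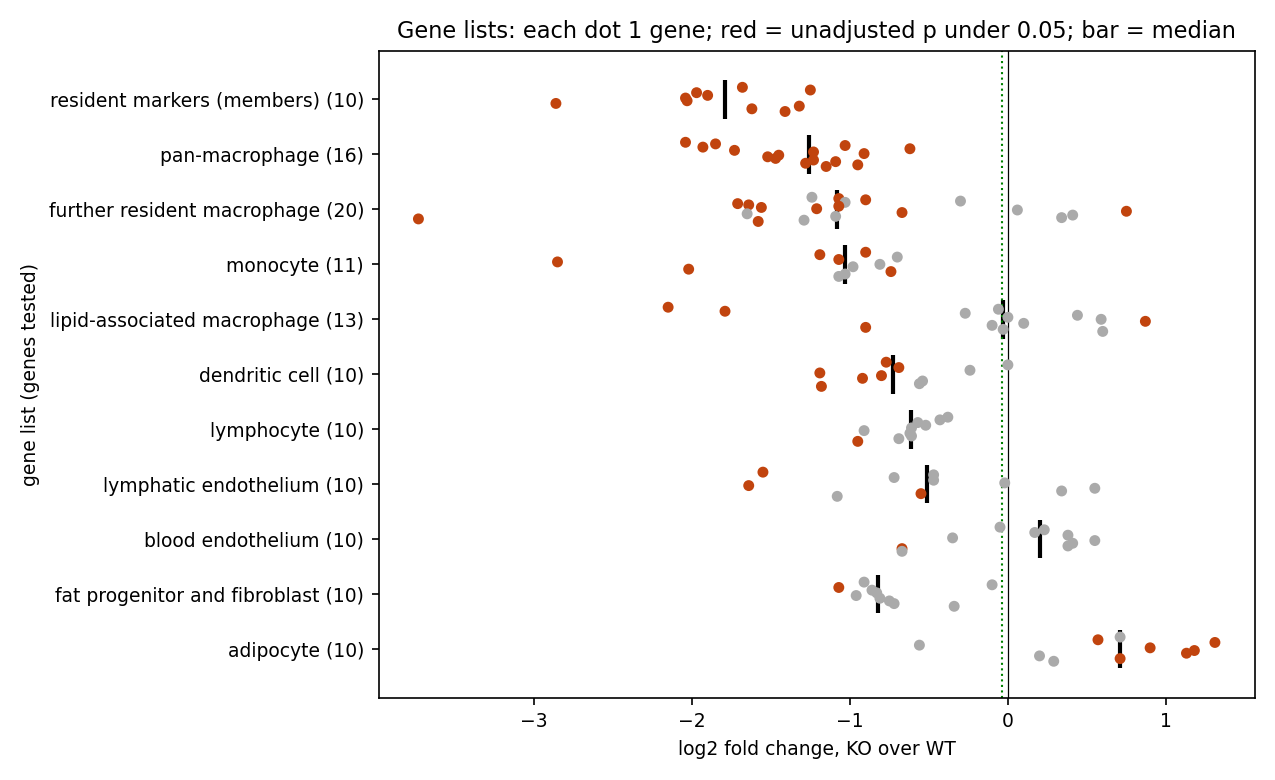
Log2 fold change of KO over WT (horizontal axis) for the genes tested in each list. Red dots have an unadjusted edgeR p under 0.05, black bars are list medians and the dotted line is the median of all genes, -0.04. The resident markers lie from -1.25 to -2.86 (median -1.79). The lipid-associated list has a median of -0.03, but its genes spread from -2.15 for Trem2 to 0.87 for Ctsd.

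Among the genes whose levels followed the mean profile of the 10 markers most closely over the 7 libraries were Ccl6, Tbxas1, Abca9, Hacd4 and Alox5. They were found among 13584 genes by the root mean square difference of centred log2 CPM, which was 0.17 for Ccl6, 0.20 for Tbxas1, Abca9 and Hacd4, and 0.21 for Alox5. Among the markers themselves, Folr2 and Mrc1 were the nearest to that mean (0.21 each) and Timd4 the farthest (1.00). Ccl6, a chemokine gene, was at 121, 68.4, 107 and 27.0 CPM in WT 1 to WT 4 and at 27.1, 32.4 and 26.2 CPM in KO 1 to KO 3. Its lowest WT value was in WT 4, within the KO range. These genes were picked for that likeness, so their differences between groups are a description.

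The count of markers with an unadjusted p under 0.05 depended on which libraries were in the fit. It was 7 without WT 1 and 8 without WT 2 or WT 3, where 10%, 7.74% and 7.18% of genes tested were lower at that threshold. It was 7 without KO 2 (6.97% of genes), 5 without KO 1 (4.76%) and 5 without KO 3 (11.2%). In the latter 2 fits Lyve1, Timd4, Folr2, Mrc1 and Clec10a were the markers under it. Scaling by total counts alone moved the median of all genes to -0.35 and the shares lower and higher at an unadjusted p under 0.05 from 9.51% and 12.3% to 25.4% and 3.62%, and under it all 10 markers stayed lower, with a median of -2.11.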

How the data were processed

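Gene-level read counts of 7 libraries (4 WT, 3 KO) were used as the authors deposited them, as whole numbers without normalization. Per the submitters' processing notes, bcl2fastq 2.20.0, Trimmomatic, HISAT2 2.1.0, StringTie 1.3.4d and DESeq2 were used with mm10. The sources used here state neither annotation, counting rule nor strand setting. Per the labels' protocols, RNA was extracted with Trizol and made into TruSeq Stranded mRNA libraries. The design text names 3 replicates per condition, and all 7 labelled samples were used.

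Symbols came from a RefSeq table of GRCm38.p6, in which 29444 of 29517 identifiers matched. The unmatched ones held 0.059% to 0.162% of counts. Exon lengths and shared 50-base stretches came from GENCODE vM21. Counts were analysed in R 4.3.3 with edgeR 4.0.16: filterByExpr (minimum count 10), TMM scaling and the quasi-likelihood F-test of KO against WT without covariate, with Benjamini-Hochberg adjustment over all 19185 genes. SEs came from the F statistic. The code was tested on simulated data. Log2 CPM used a prior count of 2. Permutation tests were exact and two-sided on the absolute difference of mean CPM. Alternatives used DESeq2 1.42.0 and limma 3.58.1. Every pair of libraries differed by more than sampling noise (chi-square per degree of freedom 105 to 559).

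The members and gene lists were chosen with earlier results of these data known. Named genes are Tm4sf5, the 10 markers, up to 2 genes with the smallest p per list, fixed partners and paralogs, and the 6 genes of most similar profile. Some genes taken by that rule are not reported here. Any other named gene was chosen after its values were seen, to show the members of a list that passed, to show what makes up a list or to describe WT 4. The design text calls the replicates biological, though no label ties a library to an animal, so p-values cover the spread between these libraries.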

Additional observations from a re-analysis of the deposited data

How the results depend on the processing

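All 10 markers stayed lower in KO under each of the 14 alternatives run. The median log2 fold change of the markers lay between -2.06 and -1.60 when 1 library was left out, and was -2.07 with the replicate block, -2.11 with total counts alone and -1.55 with limma-voom. The number of markers with an unadjusted p under 0.05 was 10 with DESeq2-type size factors (9.9% of genes were lower at that threshold) and total counts (25.4%). It was also 10 with no filter on low counts (7.64%), a filter of 1 CPM in 3 libraries (10.4%), DESeq2 (12.3%) and the replicate block (8.3%). With limma-voom it was 4, where 8.78% of genes were lower at that threshold. It ran from 5 (without KO 1 or KO 3) to 10 when 1 library was left out, with 4.76% to 11.2% of genes. The number without overlap ran from 3 to 10, with 10 without WT 4 and 5 without KO 2. Relative to the macrophage genes it ran from 0 to 3, with 3 without WT 4. These overlap counts were added after seeing the data. The number of genes past the adjusted threshold was 0 when 1 library was left out, 1 with total counts alone, 1 with limma-voom and 2158 with DESeq2. DESeq2 was the only alternative to call single markers, 8 of 10, with adjusted p-values from 3.92e-06 to 0.0633. Over the other alternatives they ran from 0.054 to 0.519. The causes of these differences were not tested.

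Replicate numbers did not pair the samples. Deviations from the group means correlated at 0.223, -0.171 and -0.0184 for WT and KO libraries of the same number, and not every library correlated best with its own number. With 4 and 3 libraries no exact permutation p can be below 0.0286. Vsig4, with at most 19 counts in 4 libraries, is the marker that depth limits most.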

Other observations

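Retnla, which encodes a secreted protein that interleukin 4 induces in macrophages, was at 108, 302, 315 and 22.6 CPM in WT 1 to WT 4 and at 65.3, 57.7 and 24.4 CPM in KO 1 to KO 3 (log2 fold change -1.93, edgeR adjusted p = 0.221). Its WT libraries stood as for Mgl2, with WT 2 and WT 3 high and WT 1 and WT 4 low, and not in the order of Mrc1 or Clec10a, for which WT 1 was the highest. Retnla was picked with its values known, and the likeness to Mgl2 was not tested.

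Timd4 and Cd163 counts stood in very different ratios in the WT libraries. Timd4 had 0.277, 1.04, 0.554 and 12.1 times the counts of Cd163 in WT 1 to WT 4, and 0.950, 1.19 and 1.91 times in KO 1 to KO 3. WT 4 was outside the range of every other library. Lyve1 over Cd163 gave 0.400, 0.649, 0.556 and 4.62 in WT 1 to WT 4 and 0.709 to 0.782 in KO libraries, so the WT 4 ratio was again the highest of the 7.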
